A study of Mus musculus with 9 samples.

Results

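Gchfr, Abhd1, Cela1 and Wdfy1 are 4 mouse genes, on 4 different chromosomes, whose RNA level in cultured fat cells differed between 2 inbred strains. They were chosen by their measured levels in these libraries, for near on-off or very large differences between the strains outside gene clusters, and they are 4 of the 24013 gene symbols in the deposited values. All 4 were among the 11542 genes tested, those with at least 1 RPKM (reads per kilobase of exon per 1000000 assigned reads) in at least 3 of the 9 libraries. Gchfr and Abhd1, below 1 RPKM in every B6 library, passed through F1 and 129. Gchfr matches the description near on-off. Abhd1 and Cela1 had very large differences, with at least 18 and 37 reads counted in each library of the lower parent. The Abhd1 reads in B6 may include reads of Preb, an overlapping gene on the opposite strand, which was not tested. Wdfy1 matches neither description: its parental means differed by 2.82-fold, and 82 genes had a larger rise in 129.

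Poly(A) RNA came from adipocytes grown from the stromal vascular fraction, the precursor-rich non-fat cells, of inguinal fat, a subcutaneous mouse depot that can form beige (inducible thermogenic) adipocytes. There were 3 libraries from F1 offspring of the parental strains, 3 from 129X1/SvJ (129), described by the series as resistant to obesity, and 3 from B6, written C57BL6/J in the sample labels and described as prone to it. All groups shared the same culture: confluent cells received a cocktail for 48 hours, and RNA was taken on day 7. The cocktail held rosiglitazone (1 µM), T3 (1 nM), insulin (850 nM), dexamethasone (1 µM), indomethacin (125 nM) and isobutylmethylxanthine (0.5 mM) in 10% serum, and the first 3 of these agents stayed in the medium afterwards. Neither the direction of the F1 cross, nor the sex or age of the mice, nor whether each library is a separate animal or culture is in the labels. The p-values therefore refer to the spread among libraries, which may be technical.

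The 4 genes have unrelated roles. Gchfr encodes the feedback regulator of GTP cyclohydrolase, the enzyme that starts synthesis of tetrahydrobiopterin (BH4), the cofactor of nitric oxide synthases and of the aromatic amino acid hydroxylases. The regulator binds the cyclohydrolase and lets BH4 inhibit it and phenylalanine relieve that inhibition. Abhd1 belongs to the alpha/beta hydrolase domain family, which includes lipid hydrolases of fat cells and proteins with no known substrate. Cela1 is a secreted serine protease that cleaves elastin, made in mouse pancreas and also found in lung. Wdfy1 is an endosomal protein with WD repeats and a FYVE domain, which binds the lipid phosphatidylinositol 3-phosphate. It has been reported to recruit the adaptor TRIF to the innate immune receptors TLR3 and TLR4.

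On mm9, the build of the deposited coordinates, Gchfr spans chr2:118993524-118998125 on the plus strand with 3 exons of 629 bases in all. Abhd1 spans chr5:31252439-31257468 on the plus strand, with 9 exons and 1356 bases. Cela1 lies at chr15:100504853-100518351 on the minus strand, with 8 exons and 1106 bases. Wdfy1 lies at chr1:79698837-79758344 on the minus strand, with 12 exons and 4714 bases. A longer gene gives more reads at the same RPKM, and the values of Gchfr in B6 rest on the fewest reads.

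Reference promoters are shown for Gchfr, near silent in B6, and Cela1, low in 129, the members with an entry in the promoter set used. The promoters are the 250 bases before the gene start in RefSeq on GRCm38.p6, which is the C57BL/6J sequence and a later build than mm9. The 129 sequence was not used here, so differences between the strains cannot be read from them. The set held no entry for Abhd1 and Wdfy1. Gchfr is at chr2:119167538-119167787 on the plus strand and Cela1 at chr15:100687921-100688170 on the minus strand. Capitals in Gchfr mark GC boxes, a CCAAT box and half-sites of NFI (nuclear factor I, the family of the factor NFIA named in the series title), and capitals in Cela1 mark a GATA motif and a TATA box.
Gchfr: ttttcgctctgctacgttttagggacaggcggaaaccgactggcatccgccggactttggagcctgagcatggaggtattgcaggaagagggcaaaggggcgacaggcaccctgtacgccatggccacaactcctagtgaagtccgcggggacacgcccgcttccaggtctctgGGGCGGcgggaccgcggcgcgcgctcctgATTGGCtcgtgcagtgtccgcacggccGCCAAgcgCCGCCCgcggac
Cela1: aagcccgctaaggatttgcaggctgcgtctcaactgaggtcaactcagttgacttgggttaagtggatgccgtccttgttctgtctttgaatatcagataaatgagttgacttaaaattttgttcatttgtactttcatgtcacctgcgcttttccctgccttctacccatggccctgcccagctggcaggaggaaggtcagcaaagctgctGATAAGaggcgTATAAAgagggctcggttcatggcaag

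The Gchfr promoter is 66.4% G and C with 27 CpG dinucleotides, against medians of 52.4% and 6 over 32851 reference promoters cut the same way. The Cela1 promoter is 48.0% G and C with 6 CpG. Motifs were searched on both strands as exact letters. The GC box GGGCGG was found at 76 to 71 and, reversed as CCGCCC, at 12 to 7 bases before the Gchfr start, and 32.7% of all promoters hold it. The CCAAT box, here reversed as ATTGG, lies at 47 to 43, and 33.8% hold it. The NFI half-site TTGGC lies at 46 to 42, overlapping the CCAAT box, and its reverse GCCAA at 20 to 16. That half-site occurs in 41.5% of promoters. The full palindromic NFI site, a half-site and its reverse 5 bases apart, occurs in 0.0365% of promoters, 12 in number, and in neither window. Cela1 holds TATAAA at 27 to 22 bases before its start, as 12.4% of promoters do in either direction, and the GATA motif GATAAG at 38 to 33, as 6.55% do. The letters CACGTG, an E-box held by 6.02% of promoters, are in neither window. These matches describe the reference sequence only.

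Abhd1 is annotated differently from the other members. RefSeq lists it as a transcribed pseudogene and GENCODE M21 as a processed transcript, with 0 of its 7 transcripts protein-coding, both on the C57BL/6J reference. Gchfr, Cela1 and Wdfy1 are listed as protein-coding, and the longest open reading frames of the transcripts examined hold 84, 266 and 410 codons. In Abhd1-202, a GENCODE transcript of 1352 bases, the longest open reading frame runs from base 46 to 777 and holds 243 codons. Reading frame 1 is free of stop codons from base 1 to 774, and frame 2 from base 749 to 1282. The 63-base stretch from base 745 to 807 is shown with the stop codon of frame 1, bases 775 to 777, in capitals. It contains the overlap of those frames, bases 749 to 774.
Abhd1-202: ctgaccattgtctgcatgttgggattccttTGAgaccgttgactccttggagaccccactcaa

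Whether the 129 transcript carries the same stop was not tested, since the deposited values hold no sequence.

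Gchfr was well expressed in F1 and 129 and near silent in B6. Its level was 8.17, 6.31 and 6.87 RPKM in the F1 libraries, 14.0, 14.5 and 14.3 RPKM in the 129 libraries, and 0.310, 0.332 and 0.118 RPKM in the B6 libraries. These values rest on 204, 212 and 217 reads in F1, 210, 259 and 214 reads in 129, and 5, 4 and 2 reads in B6. Every F1 library lay below every 129 library and above every B6 library. Per assigned read, the pooled 129 libraries had 58.6 times the Gchfr reads of the pooled B6 libraries. The 95% exact interval of that ratio, 32.5 to 118, covers counting error only and is wide because B6 gave 11 reads in all. In bulk RNA a lower level can mean fewer cells with the transcript or less transcript per cell, and these cannot be told apart.

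Abhd1 had the same order of strains as Gchfr, with a higher level in B6. The F1 libraries had 5.37, 5.61 and 5.90 RPKM, the 129 libraries 12.8, 13.0 and 15.0 RPKM, and the B6 libraries 0.776, 0.694 and 0.849 RPKM. The B6 values stand for 27, 18 and 31 reads, and those of 129 for 412, 500 and 481. Since 86.5% of Abhd1 exon bases lie inside exons of Preb on the opposite strand, the B6 reads may include reads of Preb. How many do so was not tested. Again the 3 groups did not overlap. For 129 and B6 such separation goes with the choice of the genes, here and for the other members. It is a description, with no share of all genes set beside it. The ratio of pooled reads, 129 over B6, was 17.3 (95% counting interval 13.7 to 22.1).

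Cela1 ran the other way: it was high in F1 and B6 and low in 129. Its level was 16.6, 17.8 and 15.0 RPKM in F1, 1.90, 1.33 and 1.41 RPKM in 129, and 19.5, 23.2 and 20.1 RPKM in B6. The 129 values rest on 50, 42 and 37 reads, so the gene was low but not silent there. F1 lay nearer to B6 than to 129, yet the highest F1 library, at 17.8 RPKM, was below the lowest B6 library, at 19.5 RPKM. Pooled B6 reads were 13.5 times those of 129 per assigned read (95% counting interval 11.3 to 16.3).

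Wdfy1 was expressed in all 3 groups, with a graded difference. The F1 libraries had 7.92, 8.07 and 7.76 RPKM, the 129 libraries 11.1, 11.3 and 11.4 RPKM, and the B6 libraries 4.20, 3.73 and 4.05 RPKM. With 336 to 2032 reads per library, its parental ratio has the narrowest counting interval of the 4 genes. The groups did not overlap, and the pooled 129 reads were 2.80 times those of B6 (95% counting interval 2.63 to 2.98).

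**Figure D1:**
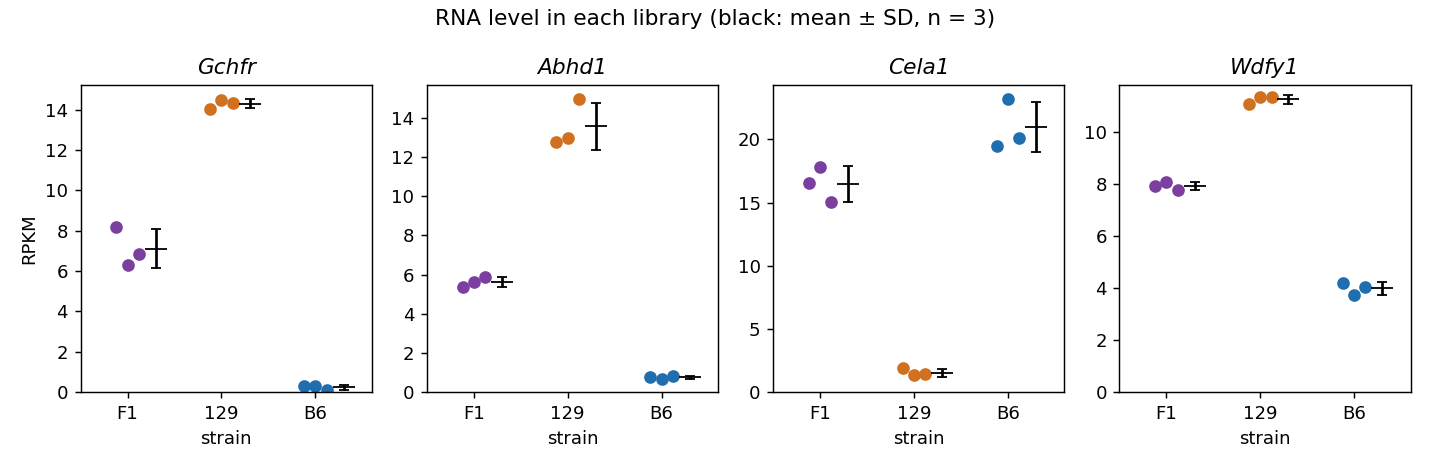
RNA level in RPKM on the y axis for each of the 3 libraries of F1, 129 and B6 on the x axis, with a panel for each gene and the mean with its standard deviation (n = 3) in black. F1 lies between the parents for all 4 genes, with Gchfr at 7.12 ± 0.956, Abhd1 at 5.63 ± 0.266, Cela1 at 16.5 ± 1.39 and Wdfy1 at 7.91 ± 0.157 RPKM.

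On the log2(RPKM + 1) scale, which understates changes of genes with low values, the difference of 129 minus B6 was 3.61 for Gchfr (SE 0.09), 3.04 for Abhd1 (SE 0.07), -3.11 for Cela1 (SE 0.09) and 1.30 for Wdfy1 (SE 0.05). Among all genes tested, Gchfr ranked 6, Abhd1 10 and Wdfy1 83 from the top of this difference, and Cela1 ranked 2 from the bottom. Since the genes were chosen on this contrast, these are descriptions with no test. Over all genes tested, 37.5% passed an adjusted p of 0.05 between 129 and B6 in either direction (15.9% higher and 21.7% lower in 129; limma, Benjamini-Hochberg adjustment), and nothing about the 4 genes is read from that share.

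The order of levels within each group also differed. In F1 it was Cela1 (16.5 RPKM), Wdfy1 (7.91), Gchfr (7.12) and Abhd1 (5.63), and the Wdfy1 libraries (7.76 to 8.07) fell within the range of the Gchfr libraries (6.31 to 8.17). In 129, Gchfr (14.3 RPKM) and Abhd1 (13.6) had overlapping libraries, followed by Wdfy1 (11.2) and Cela1 (1.55). In B6 the order was Cela1 (20.9 RPKM), Wdfy1 (3.99), Abhd1 (0.773) and Gchfr (0.253), with no overlap between neighbours.

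The members were chosen for the parental difference, and where the F1 falls between the parents was tested. The mid-parent is built from the same parental libraries that served the choice. This test is therefore not independent of the choice, and its p-values make no allowance for it. The main reference value is the linear mid-parent, the mean of the parental levels before the log, which is the level given when each parental allele keeps its own output. All F1 libraries were sequenced more deeply (39686986 to 53410947 assigned reads) than the 129 libraries (23710908 to 28473083) and the B6 libraries (19130022 to 26931438), and the part of depth in the F1 results was not tested.

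Gchfr and Wdfy1 did not differ from the linear mid-parent beyond the replicate spread. Mean Gchfr was 7.12 RPKM in F1, against a parental mean of 7.27 RPKM, a log2 difference of -0.03 (SE 0.09, 95% interval -0.22 to 0.16, limma adjusted p = 0.818). Wdfy1 averaged 7.91 RPKM in F1 and 7.62 RPKM over the parents, a difference of 0.05 (SE 0.04, interval -0.04 to 0.14, limma adjusted p = 0.422). The intervals bound what these libraries allow, and a p above the threshold does not show equality. Without F1 replicate 2 the Gchfr difference was 0.04, still not past the threshold.

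Abhd1 was below the linear mid-parent and Cela1 above it. Abhd1 averaged 5.63 RPKM in F1, against a parental mean of 7.17 RPKM, a ratio of 0.785 and a log2 difference of -0.30 (SE 0.06, interval -0.44 to -0.16, limma adjusted p = 0.00665), and all 3 F1 libraries lay below that mean. Cela1 averaged 16.5 RPKM in F1 and 11.2 RPKM over the parents, a ratio of 1.46 and a log2 difference of 0.51 (SE 0.09, interval 0.32 to 0.71, limma adjusted p = 0.00256), and all 3 F1 libraries lay above it. Both calls held in each alternative processing tried. Of the 4 members, 1 was therefore called above and 1 below. The background was 23.7% of all genes tested in either direction, 7.52% above and 16.2% below. Of the 279 genes with a called parental log2 difference of at least 1, the members included, 25 were above and 120 below. Rescaling by median-of-ratios factors changed the balance of all calls to 1309 above and 1356 below, from 868 above and 1870 below, and left the calls of the members as they were.

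**Figure D2:**
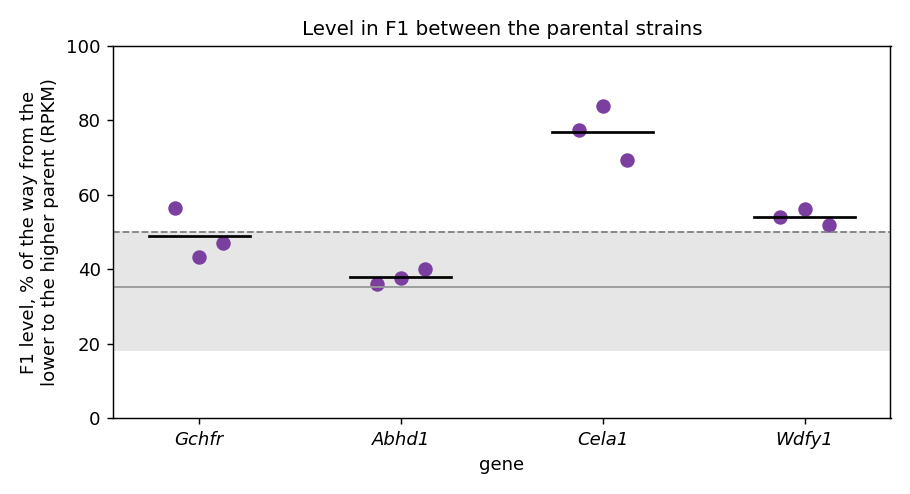
Level of each F1 library (purple points) on the y axis, as a percentage of the way from the lower to the higher parental mean in RPKM, for the 4 genes on the x axis, with black bars for means and a dashed line at the mid-point. Grey marks the quartiles (18.4% to 50.1%) and median (35.3%) of the 279 genes with a parental log2 difference of at least 1, and Cela1 stands above that range at 76.9% while Abhd1 lies inside it at 38.0%.

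Expressed as a position, with 0% at the lower and 100% at the higher parental mean, Gchfr stood at 56.5%, 43.2% and 47.2% in the F1 libraries, a mean of 48.9% ± 6.81 (SD, n = 3). Wdfy1 stood at 54.1% ± 2.16 and Abhd1 at 38.0% ± 2.08, with 129 as the higher parent for both. Cela1 stood at 77.5%, 83.7% and 69.4%, a mean of 76.9% ± 7.19 toward B6. Thus the Cela1 libraries of F1 were all nearer to B6, and all those of Abhd1 nearer to B6 as well, although B6 is the higher parent for Cela1 and the lower parent for Abhd1.

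Against the log2 mid-parent, the mean of the parental log2 values, the F1 difference was 0.89 for Gchfr (SE 0.08), 0.38 for Abhd1 (SE 0.06), 1.23 for Cela1 (SE 0.08) and 0.19 for Wdfy1 (SE 0.04). These are descriptions with no test. With a large parental difference, on which the genes were chosen, the mean of logs lies below the mean of levels, so a gene at the linear mid-parent comes out above the log2 one. Over all genes tested, 23.2% passed the test against the log2 mid-parent in either direction, 8.35% above and 14.8% below, or 964 above and 1712 below (1425 and 1250 after rescaling), and nothing about the 4 genes is read from these shares. With a pseudocount of 0.1 in place of 1, the Gchfr difference was 1.70 and that of Abhd1 0.73.

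Among all genes tested, 279 passed the test between 129 and B6 with a log2 difference of at least 1, the members included. Of these, F1 was above the linear mid-parent in 25 and below it in 120, with 134 not called, and the median position was 35.3% of the way to the higher parent. Of the 131 of them that were lower in 129, 6 had an F1 position above that of Cela1. Of the 148 that were higher in 129, 75 had one below that of Abhd1. Cela1 is thus among the few genes of this kind with F1 so close to the higher parent, and Abhd1 is near their middle. These counts are descriptions.

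**Figure D3:**
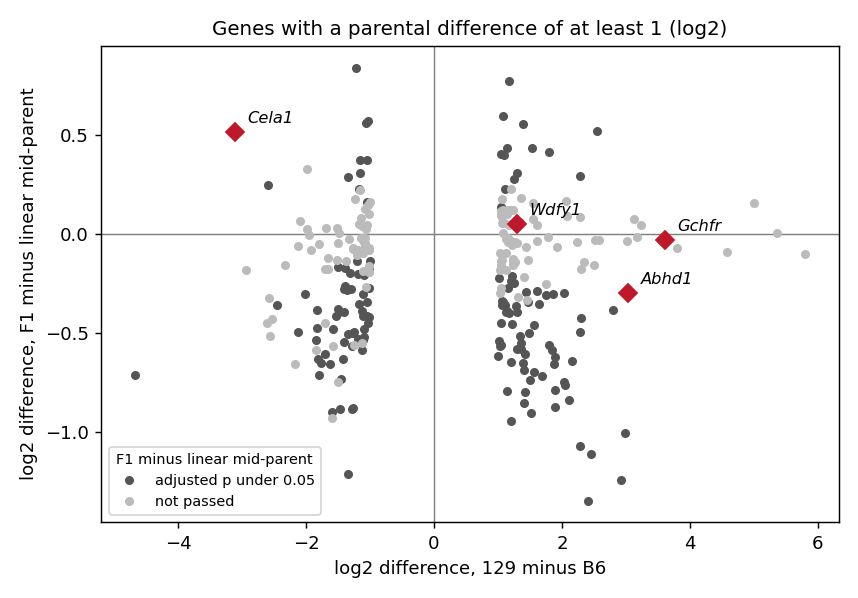
Log2 difference of F1 from the linear mid-parent (y axis) against the log2 difference of 129 minus B6 (x axis) for the 279 genes with a parental difference of at least 1, dark where the F1 difference passed an adjusted p of 0.05. The members are red diamonds, with Cela1 at 0.51 above and Abhd1 at 0.30 below the line of no difference, and Gchfr and Wdfy1 beside it.

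Genes beside the members, chosen by position, were tested for the same strain difference. For these neighbours, start means the lowest mm9 coordinate of a gene on either strand, and before means toward lower coordinates. Within 500 kb of the members' starts, 58 other genes were tested, of which 9 were higher and 14 lower in 129, or 39.7% against 37.5% of all genes. A log2 difference of at least 1 was called in 2 of the 58, both beside Wdfy1, against 279 of all 11542 genes tested. Over all genes 1834 were higher and 2499 lower in 129, and 2257 and 1995 after rescaling, so counts by direction depend on the scaling.

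Around Gchfr, 18 genes were tested, 5 higher and 7 lower in 129, with log2 differences from -0.59 to 0.55. Rmdn3, a protein at contacts between mitochondria and the endoplasmic reticulum that starts 30.8 kb before Gchfr, had 42.6, 41.0 and 41.9 RPKM in F1, 55.4, 49.7 and 55.4 RPKM in 129, and 38.1, 31.6 and 39.0 RPKM in B6. Its difference of 0.55 (SE 0.07, limma adjusted p = 0.000175) was the highest of the window and far below that of Gchfr. Ccdc32, 150 kb before, was lower in 129 (log2 difference -0.51, adjusted p = 0.000102), and Rpusd2, between them, was not called (-0.02, adjusted p = 0.794). On the other side, Dnajc17, a J-domain protein, lies on the opposite strand, 110 bases from the end of Gchfr. It averaged 4.02 ± 0.504 RPKM in F1, 3.52 ± 0.0914 RPKM in 129 and 4.36 ± 0.437 RPKM in B6, a difference of -0.24 (adjusted p = 0.035) that lost its call in 8 of the alternatives. Zfyve19, a FYVE protein of cell division, was higher in 129 (0.22, adjusted p = 0.00807), and Vps18, a core subunit of the lysosomal tethering complexes, was not called (-0.08, adjusted p = 0.328).

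Around Abhd1, 24 genes were tested and 5 were lower, with 0 higher, in 129. Cgref1, a secreted calcium-binding protein 16.9 kb before Abhd1, had the largest difference, with 1.19, 1.11 and 1.05 RPKM in F1, 0.726, 0.818 and 0.792 RPKM in 129, and 1.93, 2.04 and 1.48 RPKM in B6 (log2 difference -0.66, SE 0.08, adjusted p = 0.000101). It therefore moved opposite to Abhd1. Khk, the ketohexokinase that starts fructose breakdown, and Emilin1, an elastic fibre glycoprotein, were not called (0.08 and 0.01, adjusted p = 0.443 and 0.959). Slc5a6, the biotin and pantothenate transporter, was not called either (-0.08, adjusted p = 0.289), while Atraid, a receptor-like protein induced by retinoic acid, was lower in 129 (-0.28, adjusted p = 0.0041). In F1, 3 of the 24 genes were below the linear mid-parent and 1 above it, beside 16.2% and 7.52% of all genes. Those below included Emilin1 and Slc5a6 (-0.26 and -0.32, limma adjusted p = 0.0214 and 0.00146).

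Preb overlaps Abhd1 on the opposite strand. Preb is the exchange factor that activates SAR1 at exit sites of the endoplasmic reticulum. On mm9, 1173 of the 1356 exon bases of Abhd1, or 86.5%, lie inside exons of Preb, and 61.2% of the 50-base words of Abhd1-202 occur in Preb transcripts on the opposite strand. The library kit preserved strand, but the strand setting of the counting is not given in the sources used here, so reads within the shared stretches could be told apart only if strand was used. Preb itself had 14.7, 14.5 and 14.1 RPKM in F1, 14.2, 14.3 and 14.3 RPKM in 129, and 14.8, 14.8 and 14.8 RPKM in B6. Its difference between 129 and B6 was -0.05 (SE 0.04, limma adjusted p = 0.272) and that from the linear mid-parent -0.01 (adjusted p = 0.923), where Abhd1 differed by 3.04 and -0.30. Gchfr and Cela1 shared 0 such words with other genes and Wdfy1 0.378%.

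Of 26 genes listed within 500 kb of Cela1, 12 were tested, and of these 3 were higher and 1 lower in 129, with log2 differences between -0.49 and 0.44. Dazap2, a small proline-rich adaptor 58.8 kb before Cela1, averaged 88.7 ± 1.47 RPKM in F1, 86.5 ± 1.39 RPKM in 129 and 84.4 ± 1.62 RPKM in B6 and was not called (0.04, limma adjusted p = 0.483), and neither was C330013E15Rik (0.12, adjusted p = 0.332). Pou6f1, a POU-domain transcription factor, was higher in 129, the reverse of Cela1, at 4.03 ± 0.255 RPKM against 2.71 ± 0.239 RPKM in B6 (0.44, SE 0.07, adjusted p = 0.000656). On the far side the first tested gene, Fignl2, starts 376 kb away and was higher in 129 (0.31, adjusted p = 0.00154). Acvrl1 and Acvr1b, type I receptors of the TGF-beta family, were not called (-0.01 and -0.13, adjusted p = 0.86 and 0.111).

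Around Wdfy1, 4 genes were tested within 500 kb, of which Scg2 was higher and Serpine2 lower in 129. The difference of Scg2 was larger than the 1.30 of Wdfy1 itself. Scg2, a granin of secretory granules that starts 268 kb away, had 4.11, 4.41 and 4.87 RPKM in F1, 14.2, 10.9 and 12.7 RPKM in 129, and 2.53, 2.73 and 2.75 RPKM in B6 (1.88, SE 0.08, limma adjusted p = 5.25e-08). Serpine2, the protease nexin that inhibits thrombin and urokinase and starts 92.1 kb away, had 38.0, 35.8 and 35.7 RPKM in F1, 33.5, 32.9 and 33.6 RPKM in 129, and 76.3, 65.4 and 75.3 RPKM in B6 (-1.09, SE 0.06, adjusted p = 1.92e-07). For Serpine2 the F1 libraries lay just above 129, and for Scg2 nearer to B6, so in both F1 was near the lower parent. Both were below the linear mid-parent, Scg2 by -0.66 (adjusted p = 0.000275) and Serpine2 by -0.52 (adjusted p = 0.000111), where Wdfy1 was not called.

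The other neighbours of Wdfy1 differed by less. Ap1s3, an adaptor subunit for vesicle coats, and Mrpl44, a mitochondrial ribosomal protein, are the nearest tested genes and were not called (0.17 and -0.01, limma adjusted p = 0.07 and 0.836). Ap1s3 passed only after rescaling. Kcne4, a potassium channel subunit 885 kb away, was higher in 129 (0.39, adjusted p = 0.00028), and Cul3, a ubiquitin ligase scaffold 565 kb away, was not called (0.01, adjusted p = 0.827).

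**Figure D4:**
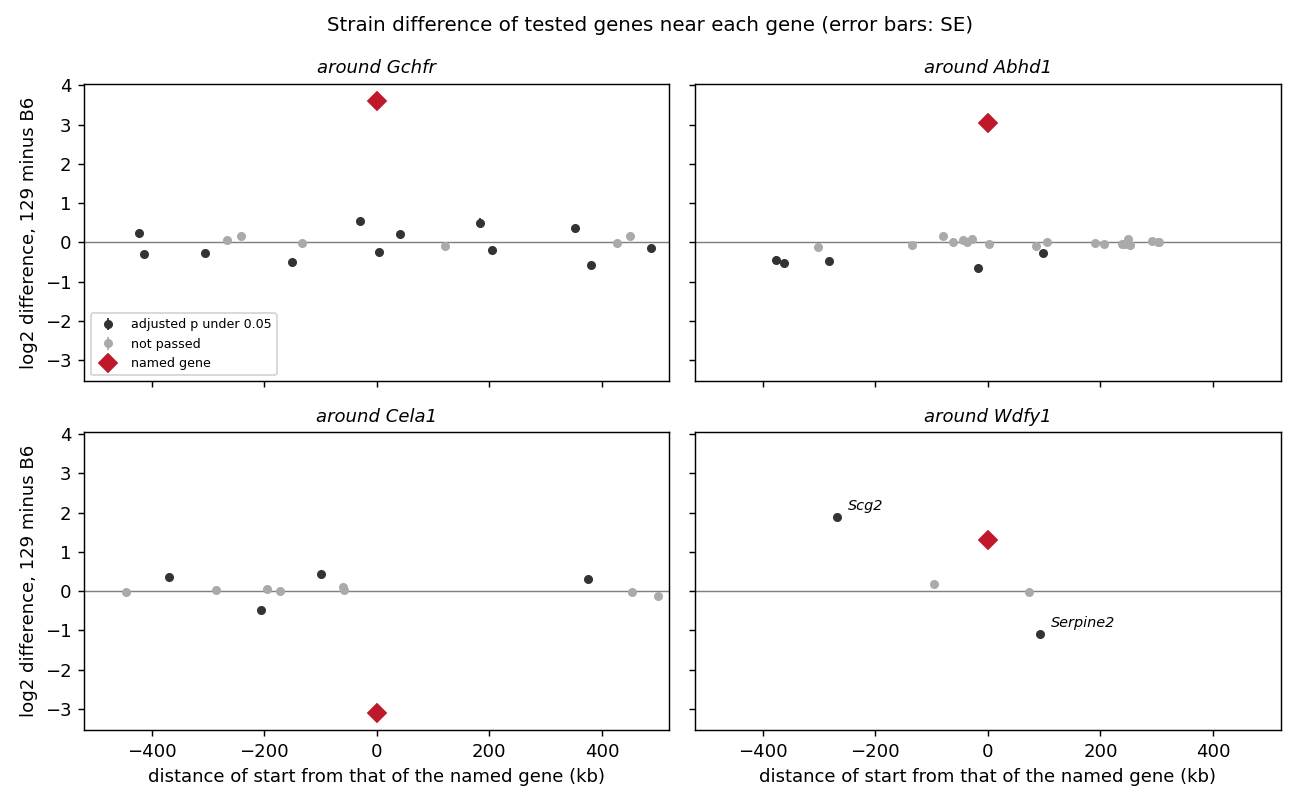
Log2 difference of 129 minus B6 (y axis, bars are SE) for the members (red diamonds) and every other tested gene within 500 kb. The x axis is the distance between starts, taken as lowest coordinates, in kb, and dark points had a limma adjusted p under 0.05. Around Gchfr, Abhd1 and Cela1 the other genes stay between -0.66 and 0.55, while around Wdfy1 Scg2 lies at 1.88 and Serpine2 at -1.09.

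Genes of the pathways and families of the members were read next, in the order of their roles. Gchfr acts on Gch1, GTP cyclohydrolase, which was below the limit for testing: 0.474, 0.467 and 0.317 RPKM in F1, 0.213, 0.267 and 0.305 RPKM in 129, and 0.620, 0.416 and 0.510 RPKM in B6. On the per-length RPKM scale, the regulator was above its partner enzyme in every F1 and 129 library and below it in every B6 library. The B6 part rests on 5, 4 and 2 Gchfr reads, and Gchfr was chosen for its strain difference. Of 6 other tested genes of BH4 synthesis and recycling, 0 were higher and 1 was lower in 129, beside 15.9% and 21.7% of all genes, with a median difference of -0.05 against -0.03 for all genes. The one that fell was Pts, the enzyme after the cyclohydrolase, at 25.0, 26.7 and 26.2 RPKM in F1, 23.3, 21.4 and 21.9 RPKM in 129, and 30.7, 28.9 and 32.3 RPKM in B6 (-0.45, SE 0.05, limma adjusted p = 5.7e-05). Pcbd1 and Pcbd2, which recycle the cofactor, were not called (-0.05 for each, adjusted p = 0.679 and 0.649). Among 8 enzymes that use BH4, those tested were Nos3, endothelial nitric oxide synthase, and Agmo, which cleaves ether lipids. Neither was called (-0.08 and 0.07, adjusted p = 0.409 and 0.475).

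Of 18 other tested members of the alpha/beta hydrolase domain family, 1 was higher and 8 were lower in 129, where 15.9% of all genes were higher and 21.7% lower, and their median difference was -0.10 against -0.03 for all genes. Abhd14b fell most clearly, at 12.2 ± 0.362 RPKM in 129 against 18.0 ± 0.828 RPKM in B6 (-0.52, limma adjusted p = 1.22e-05). Abhd3, a phospholipase, had 7.04, 6.44 and 6.93 RPKM in F1, 9.51, 7.97 and 8.07 RPKM in 129, and 15.5, 11.5 and 14.6 RPKM in B6 (-0.63, adjusted p = 0.000458). Abhd15, an adipocyte protein that restrains lipolysis, was lower in 129 (-0.44, adjusted p = 0.000715), as was Abhd14a (-0.20, adjusted p = 0.00266). The F1 level was below the linear mid-parent in 6 of the 18 and above it in 1, beside 16.2% below and 7.52% above over all genes.

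No other pancreatic protease reached the limit for testing. Of 10 other elastases, chymotrypsins and trypsins of the exocrine pancreas, 0 were tested and 6 were at 0 in every library. Their summed level was 0.438 to 0.557 RPKM in F1, 0.712 to 0.751 in 129 and 0.499 to 0.875 in B6, and most of it was Ctrl, a chymotrypsin-like protease. Other markers of pancreatic acinar cells summed to at most 0.289 RPKM in any library, with 4 of 9, the trypsins Prss1 and Prss2, the amylase Amy2a5 and the factor Ptf1a, at 0 throughout. Among 17 other elastases, elastase inhibitors, related serine proteases and elastin, 7 were tested, 5 higher and 2 lower in 129, beside 15.9% higher and 21.7% lower over all genes. Serpina3n (0.60), the neutrophil protease Prtn3 (0.64) and Cfd, adipsin (0.41), were higher (limma adjusted p = 2.46e-05, 0.00188 and 0.00113), and Serpine2, which also neighbours Wdfy1, was lower. Elastin itself, Eln, the substrate, had 4.29, 4.73 and 4.09 RPKM in F1, 7.85, 7.70 and 8.13 RPKM in 129, and 6.30, 6.66 and 7.32 RPKM in B6. It was slightly higher in 129 (0.20, adjusted p = 0.0261), and F1 lay below both parents and below the linear mid-parent (-0.63, adjusted p = 5.31e-05).

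Of 22 other tested WDFY and endosomal FYVE proteins, 2 were higher and 4 lower in 129, beside 15.9% and 21.7% of all genes, with a median difference of -0.02. The clearest were Zfyve26 (-0.35, limma adjusted p = 0.000495), Zfyve19 (0.22, adjusted p = 0.00807), Rufy1 (0.18, adjusted p = 0.00967) and Zfyve9 (-0.18, adjusted p = 0.0149). Of the TLR3 and TLR4 pathway through TRIF, 12 genes were tested, 1 higher and 4 lower in 129, with a median difference of -0.08. With 37.5% of all genes called in either direction, 5 of 12 is near the background. Tlr3, the endosomal receptor of double-stranded RNA, had 1.5, 1.73 and 1.65 RPKM in F1, 1.39, 1.44 and 1.46 RPKM in 129, and 3.11, 1.97 and 1.80 RPKM in B6 (-0.42, adjusted p = 0.0196). Without B6 replicate 1, its highest library, the difference was -0.25 (adjusted p = 0.0231). That library also stood apart in Irf7, an interferon regulator, with 23.7 RPKM against 5.15 and 7.05 RPKM in the other B6 libraries, and in the chemokine Cxcl10, with 2.94 against 0.570 and 0.338 RPKM. Tlr4, the receptor of lipopolysaccharide, and Ticam1, which encodes TRIF, were lower in 129 by small amounts (-0.17 and -0.14, adjusted p = 0.0243 and 0.032). The transcription factor Irf3 was lower as well (-0.37, adjusted p = 0.00013). Calls were lost in 1 alternative for Tlr3, in 4 for Tlr4 and in 6 for Ticam1.

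**Figure D5:**
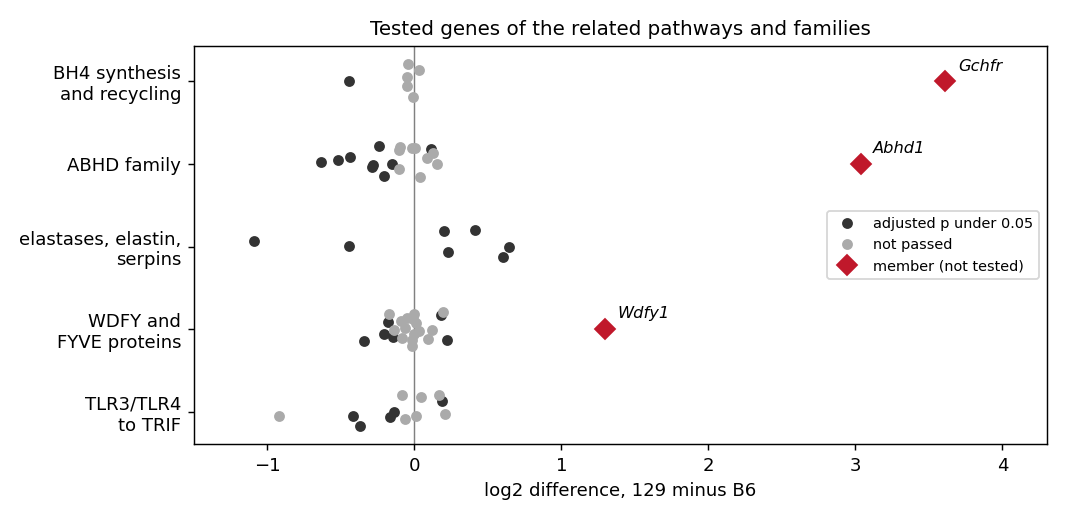
Log2 difference of 129 minus B6 (x axis) for tested genes of the pathways and families (rows), dark where the adjusted p was under 0.05, with members as red diamonds. Gchfr, Abhd1 and Wdfy1 lie outside the range of their lists, at 3.61, 3.04 and 1.30. They were chosen for this difference, so their place is a description. Cela1 is not drawn because 0 of the other pancreatic proteases were tested.

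Markers of other cell types were measured beside those of adipocytes, and their part in the results above was not tested. Adipocyte markers were high in all groups. Their sum was 35336 to 37615 RPKM in F1, 31309 to 33620 in 129 and 27266 to 31220 in B6. Adipoq did not follow that order, averaging 1350 RPKM in F1, 1289 in 129 and 1508 in B6. Of these 10 markers, 2 were higher and 2 lower in 129, beside 15.9% higher and 21.7% lower over all genes. Brown and beige markers summed to 549 to 584 RPKM in F1, 439 to 474 in 129 and 385 to 402 in B6. Of these 8 markers, 2 were higher and 3 lower in 129, beside the same shares of all genes. Macrophage markers summed to 47.6 to 66.8 RPKM in F1, 35.7 to 62.7 in 129 and 46.9 to 59.6 in B6, with Lyz2, a lysozyme, the largest term in F1 and B6. Of 9 tested, 1 was higher and 3 (C1qa, C1qb and C1qc) were lower in 129, beside the same shares of all genes. Trem2 was the higher gene, at 14.4, 14.5 and 17.3 RPKM in 129 against 0.952, 1.09 and 1.00 RPKM in B6. Mast cell markers summed to 25.6 to 31.8 RPKM in F1, 54.2 to 62.7 in 129 and 2.44 to 2.90 in B6, nearly all of it Tpsab1, while Tpsb2 and Ms4a2 were at 0 in every library. Endothelial markers summed to 7.40 to 7.77 RPKM in F1, 10.6 to 11.5 in 129 and 9.85 to 10.4 in B6. Lymphocyte markers stayed at or under 0.165 RPKM in sum, and of the epithelial markers only Krt19 was tested (0.88 higher in 129).

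The genes most like each member were ranked by Pearson r of log2(RPKM + 1) over the 9 libraries, which share their strain groups, so any gene with the same order of group means scores high. Between 370 and 471 of the other 11541 genes had r above 0.9 with a given member. Closest to Gchfr were Cd1d2, an antigen-presenting molecule (r = 0.9997), Hddc3 (0.999) and Ucp2, a mitochondrial carrier (0.998). Cd1d2 averaged 7.01 RPKM in F1, 14.6 RPKM in 129 and 0.128 RPKM in B6. Slc7a7, Pmaip1 and Ccdc132 ran most opposite (r = -0.997, -0.996 and -0.994).

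Abhd1 and Wdfy1 were among the closest genes to each other (r = 0.997), although their parental ratios were 17.5 and 2.82, since r reads the shape and not the size. Pnpla3, a lipid droplet hydrolase, was near both (0.998 for each), at 48.7 RPKM in F1, 65.7 RPKM in 129 and 28.6 RPKM in B6. A730098P11Rik also followed Abhd1 (0.997), and Cbr3, a carbonyl reductase, followed Wdfy1 (0.999). Ogdhl ran most opposite to both (-0.999 and -0.998), with Trf, transferrin, and Napepld for Abhd1 (-0.998 and -0.995) and Negr1 and Klhl42 for Wdfy1 (-0.993 and -0.992). Cela1 was followed by Entpd4, Ufsp2 and Pttg1, securin (0.992, 0.991 and 0.99), and opposed by Il31ra, Tgfbr2 and Socs2 (-0.994, -0.992 and -0.992). These rankings are unstable: with a pseudocount of 0.1, 10 of the 24 names stayed in place.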

How the data were processed

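RNA-seq values of 9 libraries, 3 each from F1, 129 and B6, were deposited by the authors as RPKM per gene, scaled to assigned reads: RPKM times exon length in kb summed to 1000000 in each library. STAR and mm9 come from the submitters' processing notes; the read counter, strand setting, annotation and versions were not given in the sources used here. Values kept steps of 1 read, from which assigned reads were recovered (100% of non-zero rows whole within 0.1 read). Stray cells (5 unnamed columns, 31 rows) were ignored.

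Genes reaching 1 RPKM in 3 or more libraries were fitted as log2(RPKM + 1) with limma 3.58.1 (trend, R 4.3.3), 1 mean per group, two-sided, with Benjamini-Hochberg adjustment over 11542 genes. The error of F1 minus the linear mid-parent came from the delta method. The fit was tested on simulated data. With 3 libraries against 3, an exact permutation test cannot give p below 0.1. Read ratios have exact conditional intervals for counting error only. Alternatives were the pseudocount, the filter, rescaling, voom on recovered reads, the replicate block, the 6 parental libraries alone and leaving out each library. Replicate libraries differed by 3.83 to 15.1 times counting variance.

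Members and lists were chosen with earlier results of these data known. Named are the members, the 3 nearest tested genes on each side, overlapping genes, known partners, up to 4 genes per pathway list with the smallest p, and the 3 most and least alike; marker genes, Ctrl, Irf7, Cxcl10 and genes at 0 were named as context after their values were seen. One gene that this rule names is not reported here.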

Additional observations from a re-analysis of the deposited data

How the results depend on the processing

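Across 16 alternatives, the members' F1 differences kept their direction and side of the threshold as reported, with 1 exception. The Gchfr difference from the linear mid-parent, not called in any, changed sign without F1 replicate 2 (0.04). The numbers of genes called varied between alternatives, and rescaling shifted the balance of higher and lower calls, as given above. Leaving out single libraries gave -0.33 to -0.24 for Abhd1 and 0.46 to 0.58 for Cela1 against the linear mid-parent, and 3532 to 4487 genes called between 129 and B6. Of 44 neighbour and pathway genes, 7 changed call under at least 1 alternative: Dnajc17, Ticam1, Tlr4, Tlr3 and Zfyve9 lost theirs, and Ap1s3 (rescaling) and Slc5a6 (without B6 replicate 2) gained one. The cause was not tested. Deviations of same-numbered libraries of different groups had correlations of -0.192 to 0.215, above 0.1 in 4 of 9 pairs. Libraries with other numbers had -0.203 to 0.231, above 0.1 in 4 of 18 pairs. With so few pairs and overlapping ranges, this check cannot settle whether the numbers pair libraries. With the replicate block, 4267 genes were called between 129 and B6, 2678 against the linear and 2587 against the log2 mid-parent. Depth limits Gchfr in B6, with 2 to 5 reads per library.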
